A study of Mus musculus with 6 samples.

Results

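4931406C07Rik is a mouse protein-coding gene of chromosome 9 that still carries the name of a cDNA clone and is annotated as a predicted ester hydrolase. It is 1 of the 12393 genes named on an Affymetrix array that compared the aortas of chow-fed mice and mice fed a high fat diet, and 2 of the 22626 probe sets, controls left out, belong to it. These 2 were every probe set whose single gene symbol in the platform annotation was 4931406C07Rik. The gene was chosen by its signals on these arrays, because both probe sets were higher on the high fat diet, so that contrast is described for it and not tested.

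Ester hydrolases are enzymes that split ester bonds by adding water, and they serve in lipid storage, in the clearance of foreign compounds and in signalling. The human ortholog of the gene, C11orf54, encodes a small protein whose crystal structure holds a zinc ion bound by histidine residues and which cleaved a model ester in the test tube. The symbol of the mouse gene says nothing of its function.

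RNA was profiled on 6 arrays, 3 per diet, and 3 aortas, described as cleaned of their adventitia and surrounding fat, were pooled for each. The inbred strain C57BL/6J, which readily gains weight when fed fat, was used in both groups, and the mice were labelled male except in high fat replicate 1, whose label names no sex. Feeding of the high fat diet took 16 to 18 weeks, starting at 10 weeks of age for replicates 2 and 3. For high fat replicate 1 an age of 16 to 20 weeks was stated. Chow replicates 2 and 3 were 26 to 28 weeks old, and no age was given for chow replicate 1. By these labels high fat replicates 2 and 3 reached the same 26 to 28 weeks as chow replicates 2 and 3. The age stated for high fat replicate 1 leaves little time before a diet of that length, and whether it is the age at collection is not stated. The series calls its pools independent, so n = 3 pools per diet throughout, and any p-value measures the spread between pools and not between animals.

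Signals are linear MAS5 intensities, with a 2% trimmed mean between 150.048 and 150.052 on the 6 arrays and median signals between 58.4 and 66.6. Most smooth muscle markers fixed for the check of the tissue were high. Acta2, the actin of smooth muscle, lay between 7181 and 9545, and Myh11, the smooth muscle myosin heavy chain, between 3212 and 3920. Actg2 was lower, between 418.7 and 820.9, and Des was the lowest of the list, between 119.8 and 222.4. Precision is limited by the number of arrays.

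The gene lies head to head with Taf1d, which encodes a subunit of the RNA polymerase I selectivity factor and is read from the opposite strand. In the RefSeq gene table of build GRCm38.p6 both gene models share 496 bases. The RefSeq promoter table listed 3 start sites of 4931406C07Rik, all on the minus strand, for a gene with 6 RefSeq transcripts. The start sites lay 281 and 4841 bases downstream of the outermost one. The Taf1d start site used here, on the plus strand, lay 47 bases upstream of the second start site of 4931406C07Rik, inside its 300-base promoter window. The windows of the 2 outer start sites are shown, that of the outermost start and that of the second, which holds this start of Taf1d. The window of the outermost start does not overlap that of Taf1d. Each runs 5′ to 3′ on the minus strand, from 250 bases before the start to 50 bases from the start on. Capitals mark matches to CACGTG, the E-box, and to GGGCGG, the GC box, on either strand.

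4931406C07Rik start 1 (GRCm38.p6, chr9:15306399-15306698, minus strand): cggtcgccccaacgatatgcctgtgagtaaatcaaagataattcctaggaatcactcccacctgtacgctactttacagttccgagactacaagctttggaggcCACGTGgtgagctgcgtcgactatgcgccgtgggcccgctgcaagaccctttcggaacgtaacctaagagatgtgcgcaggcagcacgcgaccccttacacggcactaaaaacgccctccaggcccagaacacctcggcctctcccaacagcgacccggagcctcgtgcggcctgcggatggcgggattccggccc

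4931406C07Rik start 2 (GRCm38.p6, chr9:15306118-15306417, minus strand): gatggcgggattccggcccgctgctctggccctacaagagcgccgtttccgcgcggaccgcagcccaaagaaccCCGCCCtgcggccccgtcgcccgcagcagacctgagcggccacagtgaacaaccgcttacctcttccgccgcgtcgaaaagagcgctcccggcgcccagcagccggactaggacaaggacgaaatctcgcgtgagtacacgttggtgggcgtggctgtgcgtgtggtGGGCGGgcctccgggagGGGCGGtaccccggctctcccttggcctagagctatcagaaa

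The window of start 1 held 1 E-box, which began 146 bases upstream of the start, a motif found in 7.15% of the 32851 RefSeq promoter windows of this length. The window of start 2 held 3 GC boxes, and 35.7% of all windows held at least 1. A GC box at 9 bases upstream of the start and another just after it fell in the stretch shared with the window of Taf1d, whose 2 matches are these same sites read from the other strand. AGGTCA, the half-site of nuclear receptors, had 0 matches in the windows of start 1, start 2 and start 3, against 16.3% of all windows with a match. The direct repeat that PPAR and RXR receptors bind, 2 copies of AGGTCA with 1 base between, was likewise matched in 0 of these windows and in 0.0396% of all. CCAAT was matched in 0 of the 3 windows, TATAAA in the window of start 3, and TTCCGG, the core of ETS factor sites, in those of start 1 and start 2. The TTCCGG match is the same site in both, in bases that these windows share, 41 bases after start 1 and 240 bases upstream of start 2. CpG dinucleotides numbered 26 in the window of start 1 and 34 in that of start 2, more than in 83.1% and 92.3% of all windows, but 2 in that of start 3, more than in 14.1%. Both outer windows are thus rich in CpG and the inner one is not. Motif matches describe the letters alone, and binding was not measured.

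The first probe set, 1416607_at, had signals of 384.3, 354.1 and 432.2 in chow replicates 1, 2 and 3. On the high fat diet its signals were 667.1, 878.9 and 915.1 in replicates 1, 2 and 3. All 3 high fat arrays lay above all 3 chow arrays, and high fat replicate 1 was the lowest of its diet. The mean was 390.2 ± 39.4 on chow and 820.4 ± 134.0 on high fat diet (SD over 3 pools each), with a ratio of means of 2.10. The difference was 1.05 ± 0.16 (SE) on the scale of log2(signal + 6), where the added 6 is a pseudocount that slightly shrinks differences of low signals.

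The second probe set, 1454067_a_at, had signals of 182.3, 156.2 and 188.2 in chow replicates 1, 2 and 3. On the high fat diet its signals were 355.6, 454.7 and 363.4 in replicates 1, 2 and 3. The diets again did not overlap, and the highest array was now high fat replicate 2. The mean was 175.6 ± 17.0 on chow and 391.2 ± 55.1 on high fat diet (SD over 3 pools each), with a ratio of means of 2.23, and the log2 difference was 1.13 ± 0.16 (SE). The letter a in the name of this probe set marks probes shared by alternative transcripts of 1 gene. Where the probes of either set lie on the transcripts was not analysed here.

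**Figure D1:**
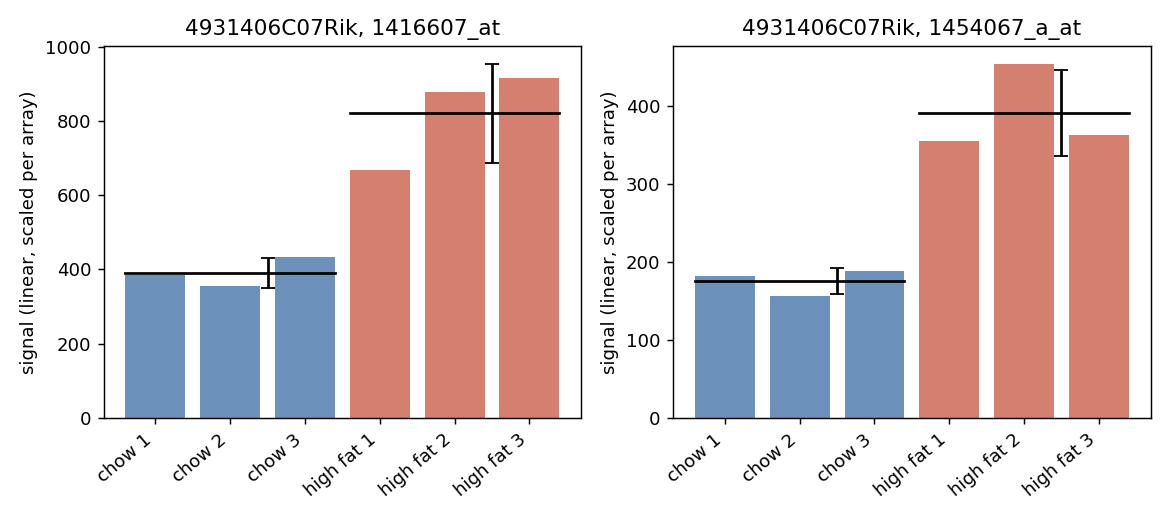
Signal of both 4931406C07Rik probe sets on each array (linear axis from 0), with chow in blue and high fat in red, the mean of each diet as a horizontal line and its SD as a bar (n = 3 pools). On 1416607_at the chow arrays reach 432.2 and the high fat arrays start at 667.1, and on 1454067_a_at these values are 188.2 and 355.6.

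The smallest ratio between any high fat and any chow array was 1.54 on 1416607_at and 1.89 on 1454067_a_at, in both cases high fat replicate 1 over chow replicate 3. The largest was 2.58 on 1416607_at, for high fat replicate 3 over chow replicate 2, and 2.91 on 1454067_a_at, for high fat replicate 2 over chow replicate 2. Both probe sets thus placed chow replicate 2 lowest, chow replicate 3 highest among chow, and high fat replicate 1 lowest among high fat. They differed in high fat replicate 3, which lay 0.17 above the mean of its diet on 1416607_at and 0.10 below it on 1454067_a_at (-0.10 on the log2 scale).

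Coefficients of variation within a diet were 10.1% on chow and 16.3% on high fat diet for 1416607_at, and 9.70% and 14.1% for 1454067_a_at. The SD within diets, pooled on the log2 scale, was 0.20 for 1416607_at and 0.17 for 1454067_a_at. Of the 13575 probe sets tested, 40.4% and 28.0% had a smaller one, so the spread between pools of one diet was not unusual for this gene.

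Both probe sets passed the filter on low values, set at a mean signal of about 40.7, and lay above that signal on every array of both diets. Ordered by their log2 difference from the most positive down, 1454067_a_at stood at place 27 and 1416607_at at place 33 of 13575. At an adjusted p under 0.05 (limma, Benjamini-Hochberg over all probe sets tested), 0.0737% of the probe sets were called in either direction and 0.0368% were called higher, and 1 of the 2, 1454067_a_at, was among them. The diets did not overlap, with high fat higher, for 6.26% of the probe sets tested and for both of this gene. The choice of the gene used this contrast, so nothing is read from either count.

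The difference had the same direction in each other setting tried, which the choice of the gene on these arrays favours. For 1416607_at it lay between 0.97 with high fat replicate 3 left out and 1.19 with high fat replicate 1 left out. For 1454067_a_at the lowest value was 1.01, on leaving out high fat replicate 2, and the highest 1.19, on leaving out high fat replicate 1. High fat replicate 1 was thus the array whose removal raised both values most.

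**Figure D2:**
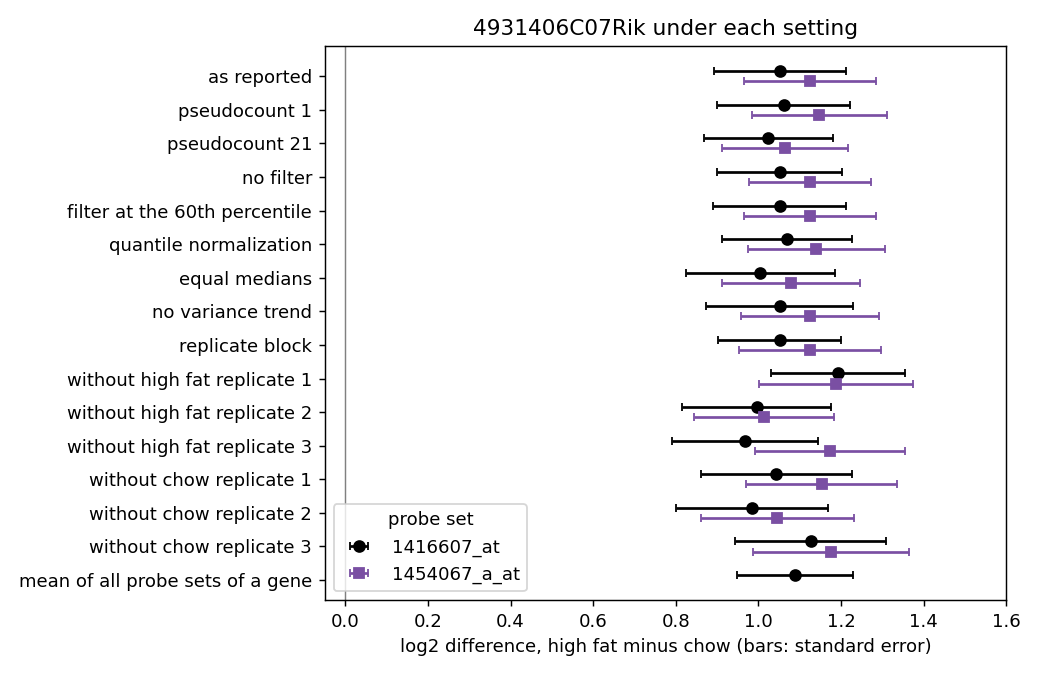
Log2 difference of 4931406C07Rik, high fat minus chow (x axis, bars are standard errors), under each setting (y axis), with 1416607_at as black circles and 1454067_a_at as purple squares. The lowest row gives the mean of both probe sets as a black circle, and the values of 1416607_at lie between 0.97 and 1.19.

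The genes around 4931406C07Rik, Smco4 apart, had low signals where the array measured them. Of the 5 protein-coding genes on each side, 5 in all had a probe set of their own symbol, namely Izumo1r, Panx1, Med17, Taf1d and Smco4, with 10 probe sets, of which 1 passed the filter. Taf1d, which shares its start region with 4931406C07Rik, had 5 probe sets with signals between 0.6 and 35.5, and the diets overlapped on each of them. Its log2 differences ran from -0.48 to 0.44 without the filter, with a smallest adjusted p of 0.888 (limma over 22626 probe sets). Detection calls were not used, so signals this low cannot be separated from background, and they give no usable value for Taf1d. Where the probes of Taf1d lie relative to the shared bases was not analysed here.

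Med17, a subunit of the Mediator complex on the other side of the gene, had 2 probe sets that went opposite ways at low signal. They had log2 differences of 1.17 and -1.33 without the filter, with a smallest adjusted p of 0.707 in limma. On 1451719_at the signals were 35.6, 21.3 and 15.5 on high fat diet and 3.5, 8.6 and 9.3 on chow, and the diets did not overlap. On 1425473_at the high fat arrays had 9.6, 8.3 and 61.6 and the chow arrays 65.1, 57.1 and 47.0. These probe sets do not agree on a direction.

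Smco4, a small membrane protein gene on the side of Taf1d, was the neighbour that passed the filter. It had 137.9, 139.0 and 105.3 on high fat diet and 139.3, 128.0 and 112.9 on chow. Its log2 difference was 0.0015 ± 0.18 (SE, adjusted p = 0.998, limma), and 0.06% of 8327 genes, with 1 probe set each, were called. Panx1, which forms a channel for ATP release, had signals between 4.8 and 36.3, and Izumo1r, the egg receptor for sperm, between 10.3 and 45.2. The diets overlapped for both.

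**Figure D3:**
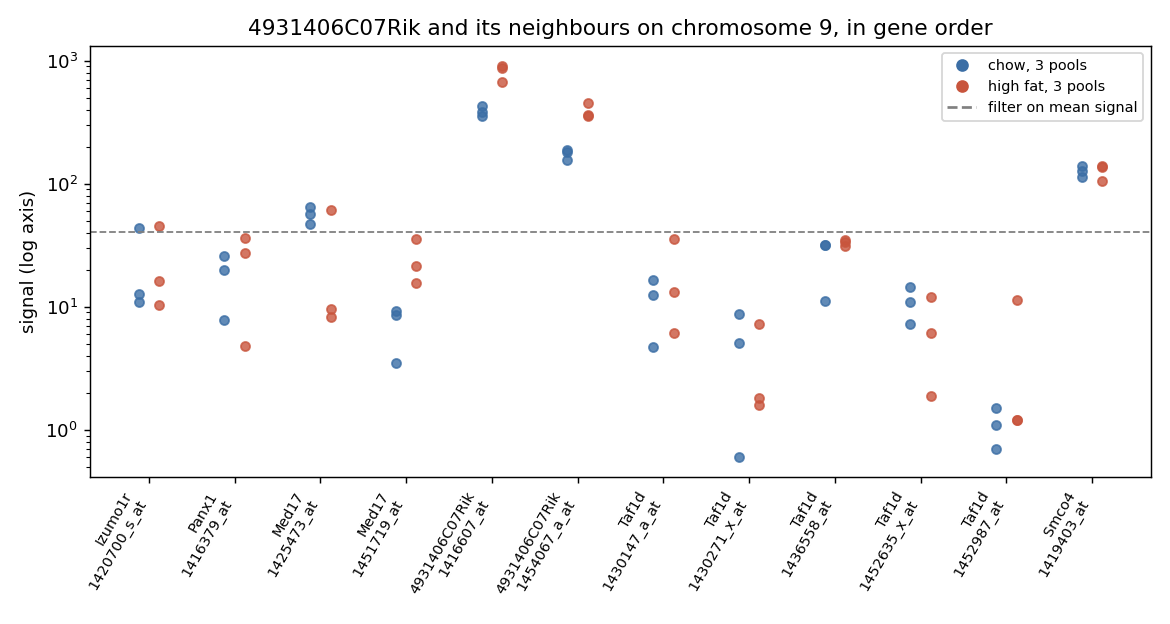
Signal (log axis) of each probe set of 4931406C07Rik and of its neighbours on chromosome 9, in gene order, with 3 chow arrays in blue, 3 high fat arrays in red and the filter on mean signal, 40.7, as a dashed line. The 4931406C07Rik probe sets lie between 156.2 and 915.1, while those of Taf1d lie between 0.6 and 35.5.

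Other genes were ordered by how close their profile over the 6 arrays came to that of 1416607_at. The measure was the root mean square difference of log2 values, each centred on its mean over the 6 arrays, and 8326 genes were compared. The other probe set of 4931406C07Rik lay at 0.14 from 1416607_at, and 4 of the other probe sets were nearer. The nearest gene was Ppif at 0.11, which encodes cyclophilin D, a regulator of the mitochondrial permeability transition pore. Ppif had 217.0, 285.9 and 266.5 on high fat diet and 133.5, 128.6 and 154.2 on chow. Its order of arrays matched that of 1454067_a_at in having high fat replicate 2 highest and chow replicate 2 lowest.

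Lgals3bp, a secreted glycoprotein that binds galectin 3, followed at 0.13, with 286.4, 434.2 and 468.1 on high fat diet and 222.1, 168.5 and 210.6 on chow. Idh3a, a subunit of mitochondrial isocitrate dehydrogenase, lay at 0.13 as well, with 507.3, 566.6 and 521.8 against 263.5, 257.2 and 294.5. Elovl3, an elongase of very long chain fatty acids that is abundant in brown fat, lay at 0.14, with 461.2, 679.5 and 744.8 against 309.2, 289.3 and 413.1. For all 3 genes chow replicate 2 was the lowest array, as for both probe sets of 4931406C07Rik.

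Ly86, a partner of a receptor of B cells and macrophages, lay at 0.16, with 89.6, 136.7 and 164.8 on high fat diet and 71.1, 62.6 and 68.7 on chow. Chchd10, a protein of the mitochondrial intermembrane space, lay at 0.16, with 1882, 2528 and 2584 against 1343, 1170 and 1649. The log2 differences of the 6 genes lay between 0.75 and 0.95, smaller than the 1.05 of 1416607_at. They were chosen for their likeness to a gene that was itself chosen for its difference between diets, so no test is given for them.

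**Figure D4:**
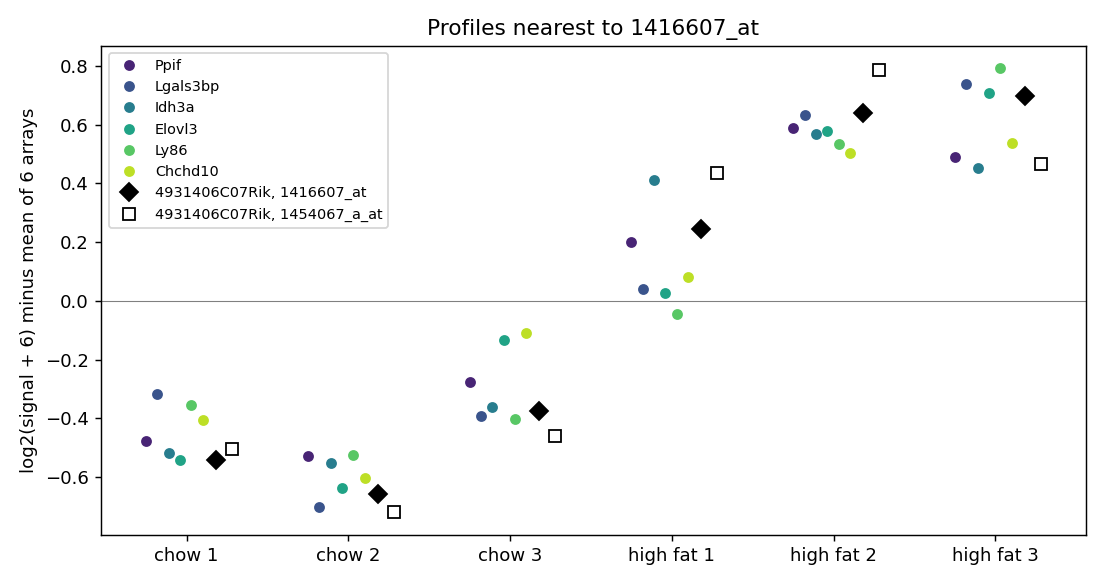
Log2(signal + 6) minus its mean over the 6 arrays (y axis) on each array (x axis) for both probe sets of 4931406C07Rik (black diamonds and open squares) and the 6 nearest genes (circles). Points of all 6 genes are lowest in chow replicate 2, where 1416607_at is at -0.66, which the choice by likeness favours.

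Among known ester hydrolases, 60 of 71 listed genes were on the array and 43 passed the filter. In limma 0 of the 43 were called, against 0.06% of 8327 genes. At an unadjusted p under 0.05, 5 were higher and 2 lower, against 4.28% and 2.71% of all genes. The median log2 difference was 0.07, with 29 of 43 higher means, beside a median of 0.0050 over all 8327 genes, of which 4234 had higher means. The most positive difference of an esterase tested was 0.95 ± 0.18 (SE), for Pla2g7, beside 1.05 ± 0.16 (SE) for 1416607_at. As 4931406C07Rik was chosen for higher signals on the high fat diet, nothing is read from this order.

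Pon1, a serum esterase carried on high density lipoprotein, had the smallest p of the list and the opposite direction, with 253.1 ± 32.4 on chow and 98.8 ± 38.7 on high fat diet (SD, n = 3 each). Its log2 difference was -1.37 ± 0.25 (SE, adjusted p = 0.156, limma), and it was called without high fat replicate 1, where the count of esterases called was 1. Pla2g7, which hydrolyses platelet-activating factor and is made by macrophages, had 57.3 ± 7.4 and 116.0 ± 6.9 (log2 difference 0.95, adjusted p = 0.205, limma). Acot13, a thioesterase of acyl-CoA, had 274.5 ± 22.0 and 402.5 ± 50.6 (0.54, adjusted p = 0.476, limma). Lipe, the hormone-sensitive lipase of adipocytes, had 501.8 ± 111.9 and 723.5 ± 90.2 (0.54, adjusted p = 0.549, limma), and its diets overlapped.

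Genes of fatty acid oxidation and targets of PPAR receptors formed the other list. Of 48 listed, 42 were on the array and 38 were tested, and the mean was higher on high fat diet for 33 of these. The median log2 difference was 0.42. In limma 1 was called, Fabp3, a fatty acid binding protein, whose log2 difference of 1.67 was larger than that of 4931406C07Rik. Of all 8327 genes 0.06% were called. At an unadjusted p under 0.05, 19 were higher and 0 lower, beside 4.28% and 2.71% of all genes. The count of 1 became 2, Fabp3 and Plin2, without high fat replicate 1 and likewise without chow replicate 3. Both lists were drawn up with earlier results of these arrays known, and their counts are not independent evidence of a direction.

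Clone-named genes other than 4931406C07Rik, those whose symbol ends in Rik, numbered 169 on the array, and 80 passed the filter. Their median log2 difference was 0.02, with 44 higher and 36 lower means. In limma 0 were called, beside 0.06% of all genes, and 2 were higher and 2 lower at an unadjusted p under 0.05, where all genes had 4.28% and 2.71%. These shares are near the background. The smallest p belonged to 1110008P14Rik, at 223.6 ± 24.2 on chow and 450.9 ± 117.9 on high fat diet (log2 difference 0.97, adjusted p = 0.295, limma). Next came 1700037H04Rik, at 411.4 ± 162.6 and 629.6 ± 102.9 (0.67, adjusted p = 0.631, limma), whose diets overlapped.

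Markers of other cells differed between the arrays, and their part in the values of 4931406C07Rik was not tested. In RNA of whole tissue, a change in the number of cells of a type cannot be told apart from a change in RNA per cell. All 7 brown adipocyte markers had higher means on high fat diet, and their summed signal was 10462 to 12665 there and 6746 to 8937 on chow, without overlap. On chow this sum was lowest in replicate 2 and highest in replicate 3, the same order as for both probe sets of 4931406C07Rik. The macrophage, white adipocyte, hepatocyte and kidney tubule marker sums had that order on chow as well, and those of smooth muscle, endothelium and cardiac muscle did not. On high fat diet the brown adipocyte sum was highest in replicate 2, as was 1454067_a_at, and lowest in replicate 3, where 1416607_at was highest. The macrophage and cardiac muscle sums were there highest in replicate 2 and lowest in replicate 1, as was 1454067_a_at. No marker sum had the high fat order of 1416607_at, lowest in replicate 1 and highest in replicate 3. With so few arrays per diet a shared order is easily met, so nothing is read from it. Ucp1, the uncoupling protein that defines brown adipocytes, had signals between 2122 and 3664 on the 6 arrays. This defining marker thus gave a high signal on both diets, although the aortas were described as cleaned of surrounding fat. How much fat remained on them was not tested.

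Of 8 macrophage markers, 7 were higher in mean on high fat diet, with sums of 2463 to 4130 there and 1909 to 2441 on chow. Of 7 endothelial markers 6 were higher, with sums of 1277 to 1473 and 1107 to 1173. White adipocyte marker sums overlapped, at 6847 to 7196 on high fat diet and 5532 to 7834 on chow, with 4 of 5 markers higher. The lower one, Retn, had a mean of 216.9 on high fat diet and 464.0 on chow, without overlap. Its log2 difference was -1.06 (adjusted p = 0.0435, limma), and 0.0737% of the probe sets tested were called. Cardiac muscle markers, all 7 higher in mean, overlapped widely, at 689 to 4453 and 706 to 2160, and smooth muscle markers did so at 24830 to 25799 and 24156 to 30058, with 1 of 8 higher.

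Hepatocyte markers were lower in mean for all 5 on the array, with sums of 312.1 to 443.8 on high fat diet and 407.6 to 928.2 on chow, where chow replicate 3 had the highest sum. Kidney tubule markers had sums of 271.7 to 351.8 and 313.4 to 359.8, with 2 of 6 higher. Umod, the uromodulin of kidney tubules, lay between 2.6 and 24.2. Of all marker lists 0 genes were listed at 0 on every array.

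**Figure D5:**
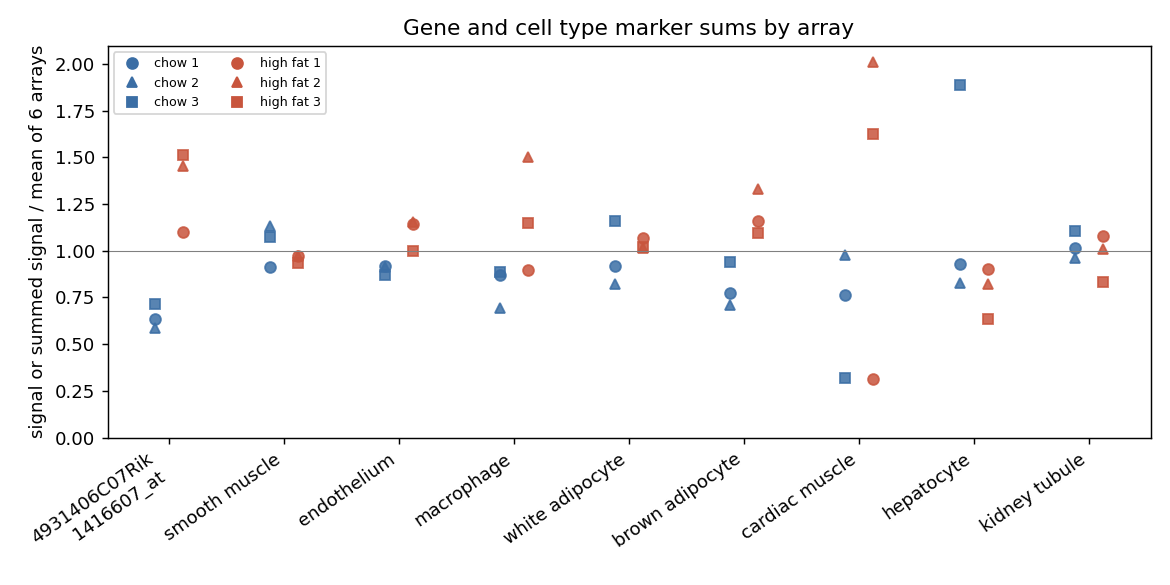
Signal of 1416607_at and summed signal of each marker list (y axis, divided by the mean of the 6 arrays, from 0), with chow in blue, high fat in red and the replicate by symbol. The sums of brown adipocyte, macrophage and endothelial markers do not overlap between diets, as for 4931406C07Rik. Those of macrophage markers nearly meet, at 2463 on high fat diet and 2441 on chow. Those of cardiac muscle markers range from 689 to 4453 within the high fat diet.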

How the data were processed

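RNA of 6 pools was hybridised to Affymetrix mouse arrays, from 5 µg of RNA each, per the labels' protocols. The authors deposited linear signal intensities for each probe set, made with MAS5 per the submitters' processing notes (settings and version: not given in the sources used here), and the scaling was kept.

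Of 22690 probe sets, 64 controls were left out. The platform annotation gave 1 symbol to 20380 probe sets, several to 691 and none to 1555. Signals were taken as log2(signal + 6), near their 10th percentile of 5.9, and the 13575 probe sets above the 40th percentile of mean log2 value were tested. Diets were compared in R 4.3.3 with limma 3.58.1, using lmFit and eBayes with trend, two-sided tests, Benjamini-Hochberg adjustment and a threshold of 0.05. In gene lists, the probe set of highest mean log2 value stood for a gene.

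The gene, the lists, the markers and the tests were chosen with earlier results of these data known. Named were every probe set of the gene, each neighbour on the array, members of a list past the threshold or else the 4 (clone-named genes 2) of smallest p, and the 6 nearest profiles. Plin2, Retn, Actg2 and Des were named after their values were seen. Neighbours follow the gene order of RefSeq GRCm38.p6, and promoter windows come from the RefSeq table of that build. The files name no build.

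The fit was tested on simulated data (20 runs, 13575 probe sets), where log2 changes of 1 and 1.5 were recovered in 78.0% and 97.6% of cases, and 6.62% of calls were false. The simulated noise was normal, and the changed probe sets far outnumbered the 10 called here. Benjamini-Hochberg adjustment is less strict in that case, so these shares need not hold for the real arrays. The alternatives were 1 or 21 as pseudocount, a filter at the 60th percentile or none, arrays scaled to equal medians or quantile normalized, no variance trend, a replicate block, leaving out each array, and averaging the probe sets of a gene. Tables and figures were made in Python 3.11.15 with numpy 2.4.6, pandas 2.3.3 and matplotlib 3.10.9.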

Additional observations from a re-analysis of the deposited data

How the results depend on the processing

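The log2 difference of 1416607_at moved by less than its pooled SD within diets in 14 of 14 other settings and that of 1454067_a_at likewise in 14 of 14, with ranges of 0.97 to 1.19 and 1.01 to 1.19. The mean of both probe sets gave 1.09. The probe sets called over all numbered 10, against 5 with the replicate block, 6 with no filter, 5 with no variance trend, and 5 to 16 on leaving out a single array. Esterase genes called numbered 0 to 1 and fatty acid oxidation genes 1 to 2 without a single array. Neighbour genes and clone-named genes had 0 calls in each setting. Equal medians moved the median of all probe sets from -0.01 to -0.06. Same-numbered arrays of the diets had correlations of their deviations of 0.03, 0.17 and -0.11. Those of differing number lay between -0.16 and 0.14, and not every array correlated best with its own number. Values this few and weak cannot decide whether same-numbered arrays were handled together. Signals were not set against background, which limits what low probe sets such as those of Taf1d can show.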
